A study of Mus musculus with 4 samples.

Results

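The Skint genes are a mouse gene family of the epidermis and thymus, named for selection and upkeep of intraepithelial T cells. Their RNA was read here in mouse skin, in 1 library for each of the treatments PRP-MNs, PRP and MNs and for NC, so that there were 4 groups of 1 library. A total of 10 genes, Skint1 to Skint7, Skint9, Skint10 and Skint11, were taken by symbol from a table of 25571 genes, and all 10 were found. They were selected on measured FPKM values, because Skint2 and Skint9 stood among the lowest genes of earlier comparisons of these same libraries, so their differences are a description and were not tested. Skint8, the only other gene of the table with a Skint symbol, was not among those chosen and is given beside them.

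The series title names platelet-rich plasma microneedles and hair regrowth. PRP is taken from it as platelet-rich plasma, the platelet concentrate of blood, and MNs as microneedles, which are arrays of fine needles, so that PRP-MNs carries both. NC is not spelled out in the labels and served as the point of comparison. Strain, sex, age, the time of harvest, the hair cycle stage and whether a library held 1 animal or several are not given in the sources used here. Since no group has a second library, no difference could be set against a spread between replicates, and each value describes a library.

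Skint proteins resemble butyrophilins, with extracellular immunoglobulin-like domains followed by membrane-spanning segments. Skint1, the founding gene, acts in mouse thymic epithelium, where it is needed for the development of the gamma delta T cells that later settle in the epidermis as dendritic epidermal T cells. Suprabasal keratinocytes also express Skint1. In mice, keratinocytes at wound edges have been described to use Skint3 and Skint9 in their dealings with these T cells. The roles of the remaining genes are less well known.

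The libraries showed skin by their markers, with the suprabasal keratin Krt10 at 475 FPKM with PRP-MNs, 3428 with PRP, 1079 with MNs and 6056 in NC. FPKM is the number of fragments scaled to transcript length and to library depth. Of 6 genes listed for thymic medullary epithelium, Aire and Fezf2, its defining regulators, were listed at 0 in every library. The other 4 are also expressed elsewhere and were detected, the chemokine gene Ccl21a at up to 78.2 FPKM in MNs, Cd80 at up to 8.60 and Tnfrsf11a at up to 7.89 FPKM in PRP-MNs, and Ly75 at up to 1.32 FPKM in NC. From steps in the low values the depth was estimated at 15.9 M to 19.4 M fragments, PRP being the shallowest library and NC the deepest. On a transcript of 1 kb, 3 fragments then came to 0.155 to 0.188 FPKM. Mitochondrially encoded genes took 10.9% to 15.5% of the FPKM sums.

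Every Skint gene chosen was lower in PRP-MNs, in PRP and in MNs than in NC. The summed level of the 10 genes was 28.0 FPKM with PRP-MNs, 239 with PRP, 61.9 with MNs and 497 in NC. Relative to NC, the sum thus stood at 5.64% in PRP-MNs, 48.1% in PRP and 12.5% in MNs. In 8 of 10 genes the libraries followed that same order, with NC highest, then PRP, then MNs, and PRP-MNs lowest. Skint2 and Skint7 were the exceptions. In bulk skin, fewer keratinocytes and less Skint RNA in each keratinocyte cannot be told apart.

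**Figure D1:**
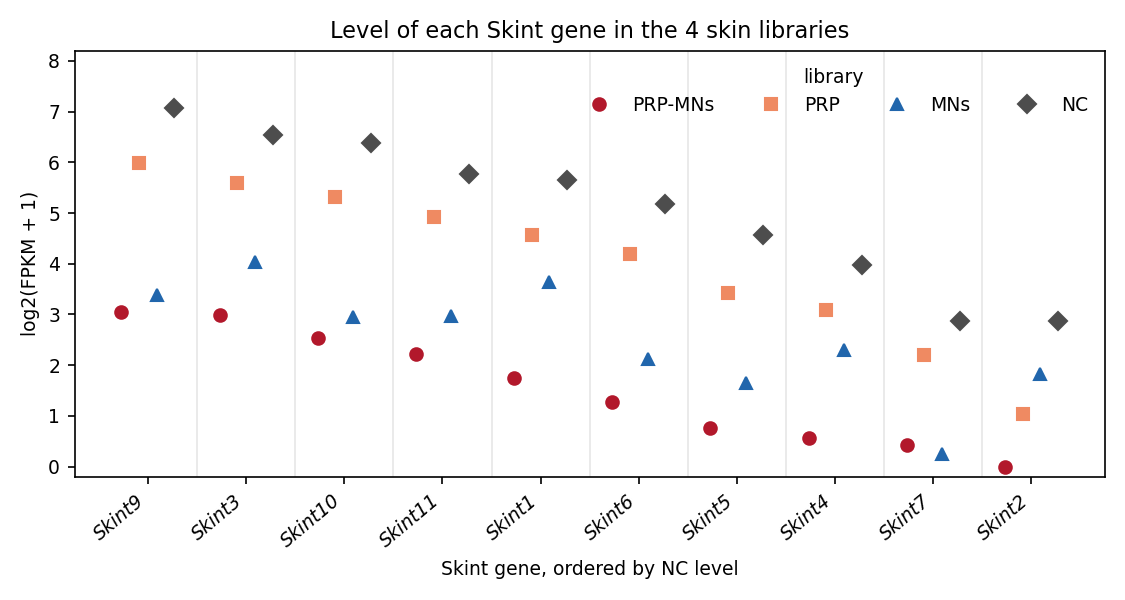
Level of the 10 Skint genes as log2 of FPKM + 1, with 1 point per library (PRP-MNs circles, PRP squares, MNs triangles, NC diamonds) and genes ordered by their NC level. The NC point is the highest for each gene, and the PRP-MNs point is the lowest for 9 of 10, Skint7 being lowest in MNs.

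Skint9 was the most abundant member in PRP-MNs, PRP and NC and the third in MNs, at 7.32 FPKM with PRP-MNs, 62.3 with PRP, 9.48 with MNs and 134 in NC. Skint3, which led in MNs and came second in the other libraries, was at 6.98 FPKM with PRP-MNs, 47.0 with PRP, 15.3 with MNs and 92.3 in NC. In both genes PRP lay between NC and the microneedle libraries, with PRP-MNs lowest. Skint10 stood at 4.83 FPKM with PRP-MNs, 38.7 with PRP, 6.76 with MNs and 82.5 in NC. The level of Skint11 was 3.64 FPKM with PRP-MNs, 29.3 with PRP, 6.79 with MNs and 53.7 in NC. These 4 genes were the 4 most abundant in PRP-MNs, PRP and NC alike, whereas in MNs Skint1 ranked second behind Skint3.

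Skint1, the gene tied to T cell selection, was at 2.34 FPKM with PRP-MNs, 22.6 with PRP, 11.5 with MNs and 49.3 in NC. Its MNs level was thus 23.3% of NC, nearer to its PRP level than was the case for Skint9 or Skint10. Skint4 shared that feature, with 0.478 FPKM with PRP-MNs, 7.49 with PRP, 3.91 with MNs (26.5% of NC) and 14.7 FPKM in NC. The pair Skint6 and Skint5, which have the longest gene spans of the family, behaved alike. Skint6 stood at 1.42 FPKM with PRP-MNs, 17.3 with PRP, 3.33 with MNs and 35.3 in NC. For Skint5 the levels were 0.700 FPKM with PRP-MNs, 9.75 with PRP, 2.16 with MNs and 22.8 in NC. In MNs, Skint6 was thus at 9.44% and Skint5 at 9.45% of NC.

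Skint7 and Skint2 were the least abundant of the 10 in NC, and each departed from the order of the others. Skint7 was at 0.346 FPKM with PRP-MNs, 3.60 with PRP, 0.189 with MNs and 6.36 in NC, and so was lowest in MNs. Its share of NC was 5.43% in PRP-MNs and 2.98% in MNs, with exact 95% intervals from the estimated fragments of 2.67% to 9.91% and of 1.08% to 6.58%. These intervals overlap, and no order of PRP-MNs and MNs is read from them. Skint2, also known as B7S3, was listed at 0 in PRP-MNs, and was at 1.04 FPKM with PRP, 2.55 with MNs and 6.34 in NC. It was the only gene of the 10 that was lower in PRP than in MNs. Its share of NC was 16.4% in PRP (interval 10.7% to 24.5%) and 40.2% in MNs (30.6% to 52.3%). The intervals are no test of a difference, since they cover counting error only and rest on approximate fragment numbers over the longest annotated transcript of each gene.

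A value of 0 can be a failed estimate. In PRP-MNs, 3 of the 8452 genes at or above 5 FPKM in NC were listed at 0, Skint2 among them, and none of 10 housekeeping genes looked at was at 0 in any library. On the longest Skint2 transcript, 3 fragments corresponded to 0.104 FPKM in PRP-MNs. No fold is given for Skint2 in that library. Where a log2 difference with 1 FPKM added to each level is printed for it, that value depends on the added amount and is no fold. Skint8 was at 0.123 FPKM with PRP-MNs, 1.89 with PRP, 1.17 with MNs and 4.62 in NC, so it followed the order of the 8.

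Expressed as a share of NC, the genes lay close together in percentage points in PRP and PRP-MNs and farther apart in MNs. Leaving Skint2 aside, the PRP shares ran from 42.8% in Skint5 to 56.6% in Skint7, and the PRP-MNs shares from 3.07% in Skint5 to 7.56% in Skint3. Taken as ratios, the PRP-MNs shares spread more widely than the PRP shares. In MNs the shares of the same 9 genes ran from 2.98% in Skint7 to 26.5% in Skint4. The low end there rests on Skint7 at 0.189 FPKM, and the next lowest share was 7.08% in Skint9. The median over all 10 genes was 5.09% in PRP-MNs, 47.9% in PRP and 11.0% in MNs.

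**Figure D2:**
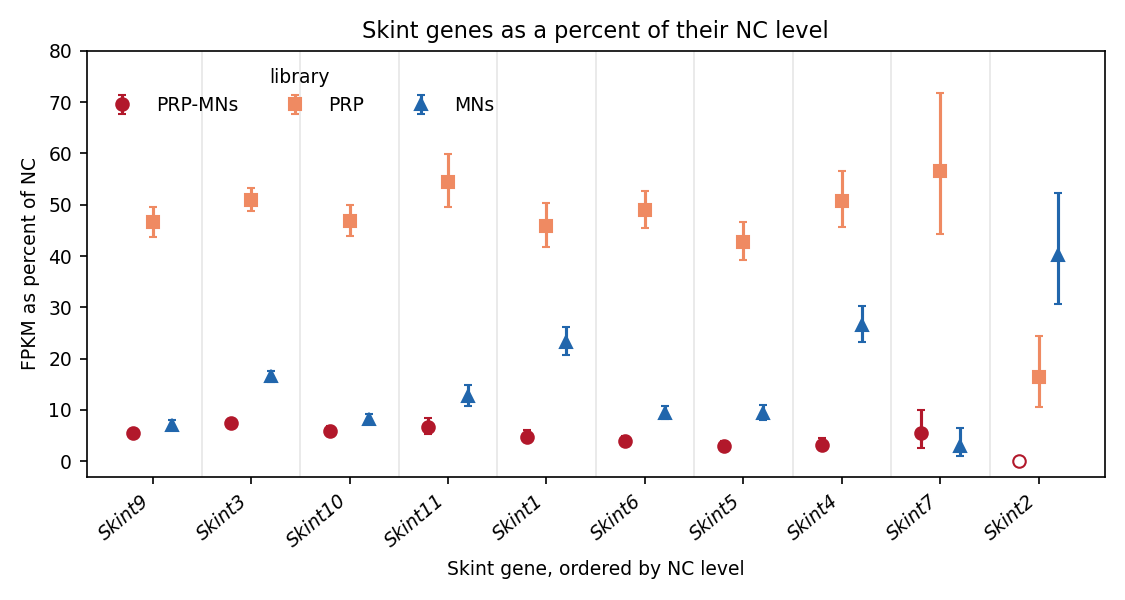
Level of each Skint gene as a percent of its own NC level (vertical axis, linear) in PRP-MNs (circles), PRP (squares) and MNs (triangles), with exact 95% counting intervals from estimated fragments. The PRP points sit near the median of 47.9% except Skint2 at 16.4%, whereas the MNs points range up to 40.2%, and the open circle marks Skint2, listed at 0 in PRP-MNs.

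The makeup of the summed level differed between libraries through the same genes. Skint9 made up 26.1% of the sum with PRP-MNs, 26.1% with PRP, 15.3% with MNs and 26.9% in NC. Skint1 made up 8.33% with PRP-MNs, 9.46% with PRP, 18.6% with MNs and 9.91% in NC. Skint2 made up none of the sum with PRP-MNs, 0.436% with PRP, 4.11% with MNs and 1.27% in NC. MNs was thus the library whose makeup stood apart, with less Skint9 and more Skint1, Skint2 and Skint4 than the others.

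**Figure D3:**
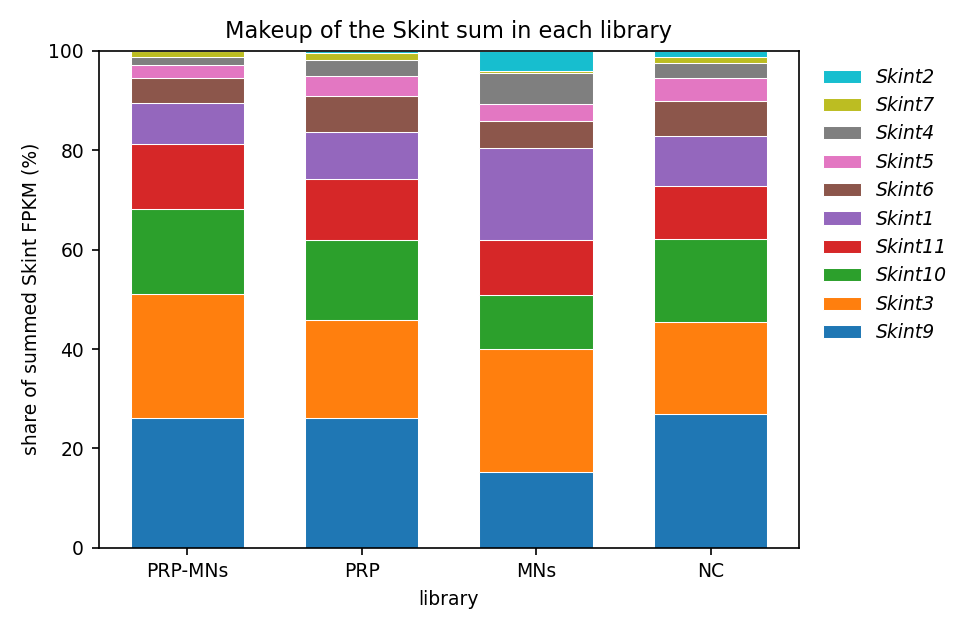
Share of the summed Skint FPKM taken by each of the 10 genes (stacked bars, in percent) in PRP-MNs, PRP, MNs and NC. The Skint9 segment is 15.3% in MNs and between 26.1% and 26.9% in the other libraries.

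The Skint genes form 1 cluster on chromosome 4. On GRCm38 the 10 genes lie between positions 111972923 and 114245028, a span of 2.27 Mb, with 6 on the plus and 4 on the minus strand. Skint7 (ENSMUSG00000049214, 111972923 to 111988223) lies first, followed on the plus strand by Skint1 (ENSMUSG00000089773, 112006269 to 112029538), Skint4 (ENSMUSG00000055960, 112072016 to 112168076) and Skint3 (ENSMUSG00000070868, 112232245 to 112300468). Skint9 (ENSMUSG00000049972, 112385969 to 112433985) is on the minus strand, and Skint2 (ENSMUSG00000034359, 112557194 to 112652248) lies next on the plus strand. Skint10 (ENSMUSG00000048766, 112711147 to 112774866), Skint6 (ENSMUSG00000087194, 112804616 to 113286973) and Skint5 (ENSMUSG00000078598, 113477891 to 113999503) follow on the minus strand, and Skint11 (ENSMUSG00000057977, 114163384 to 114245028) closes the cluster on the plus strand. All are annotated as protein-coding. The members with the largest shares of NC left in MNs were Skint2, Skint4 and Skint1. Skint1 and Skint4 are neighbours, and Skint3 and Skint9 lie between Skint4 and Skint2.

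Genes outside the cluster differed in direction. Slc5a9, a sugar transporter gene 16.5 kb before Skint8, was at 1.33 FPKM with PRP-MNs, 7.39 with PRP, 2.40 with MNs and 12.1 in NC, in the order of the Skint genes. Spata6, farther out on that side, was at 9.80 FPKM with PRP-MNs, 6.10 with PRP, 9.26 with MNs and 3.69 in NC. On the far side of Skint11, Trabd2b was at 2.95 FPKM with PRP-MNs, 1.18 with PRP, 3.03 with MNs and 1.41 in NC. Slc5a9 was thus lower than NC in all 3 libraries, Spata6 in none of them, and Trabd2b in PRP alone. Agbl4 and Gm12830 were listed at 0 throughout, and Foxd2 stayed under 1 FPKM, its highest level being 0.304 FPKM with PRP-MNs.

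**Figure D4:**
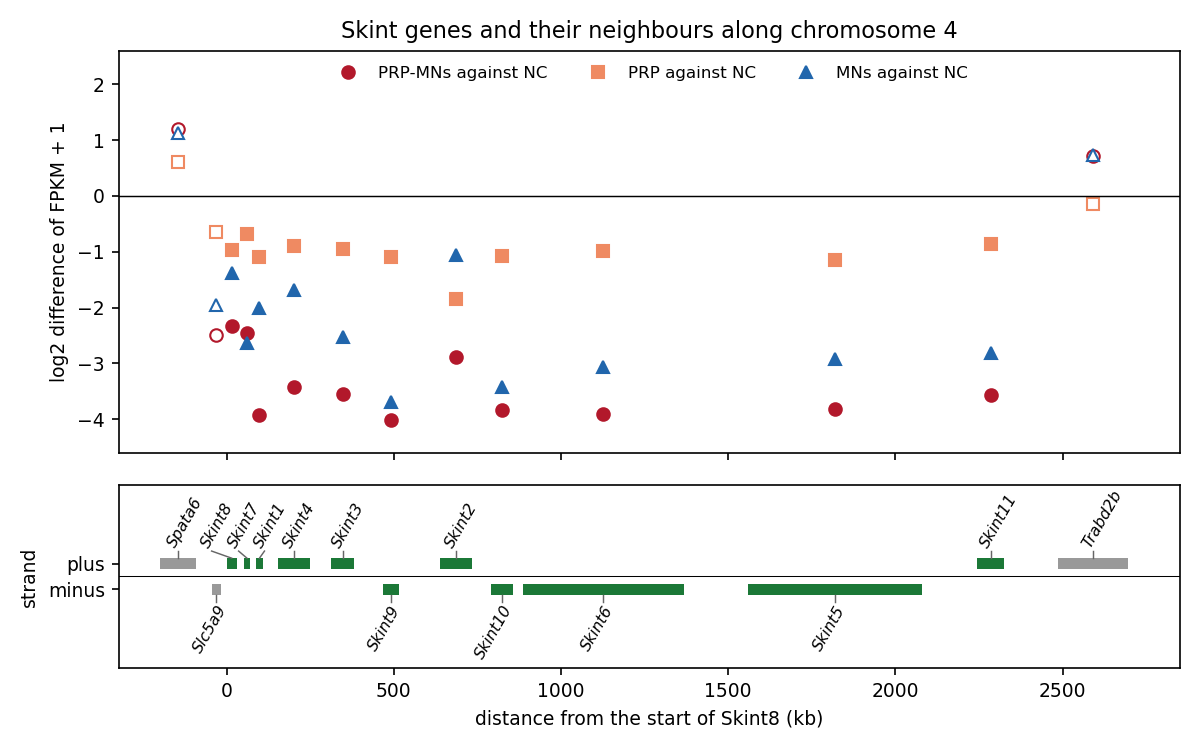
Upper panel, log2 difference of FPKM + 1 against NC for each Skint gene (filled symbols) and for Spata6, Slc5a9 and Trabd2b (open symbols) in PRP-MNs, PRP and MNs. Lower panel, gene spans by strand against distance from the start of Skint8 in kb. Slc5a9 lies below 0 beside the Skint genes, whereas Spata6 in all 3 libraries and Trabd2b in PRP-MNs and MNs lie above 0.

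To see what the members share beyond their levels, the 250 bases before each start were compared between them (RefSeq, GRCm38.p6, 11 windows, with a second start for Skint4). The longest identical run between a pair was 26 bases, in Skint6 and Skint5. Skint10 and Skint11 shared a run of 20 bases, as did Skint1 and Skint5, and the median over all 55 pairs was 9 bases. A word of 14 bases, AGTACTTGAGTAAT, was shared by 5 members, and of 32817 windows of all genes only those 5 held it on either strand (0.0152%). It is shown in capitals within 80 bases of each window, read 5′ to 3′ on the strand of the gene, since it marks the sequence these starts have in common.
Skint1, chr4:112006019-112006098, plus strand: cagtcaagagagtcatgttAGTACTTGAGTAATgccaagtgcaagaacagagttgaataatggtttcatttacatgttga
Skint4 second start, chr4:112081390-112081469, plus strand: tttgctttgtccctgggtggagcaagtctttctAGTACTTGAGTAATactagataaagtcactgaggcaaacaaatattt
Skint3, chr4:112232109-112232188, plus strand: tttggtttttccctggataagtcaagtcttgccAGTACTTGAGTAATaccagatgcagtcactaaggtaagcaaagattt
Skint6, chr4:113287144-113287223, minus strand: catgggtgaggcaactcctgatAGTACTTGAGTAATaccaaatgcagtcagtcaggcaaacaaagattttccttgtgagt
Skint5, chr4:113999674-113999753, minus strand: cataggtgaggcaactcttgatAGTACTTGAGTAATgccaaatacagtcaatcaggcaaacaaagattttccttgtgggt

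Skint9, Skint10 and Skint11 shared another word, TGACTTTCATAAA of 13 bases, which likewise occurred in no window outside these 3 (0.00914% of 32817). It is in capitals in the same layout.
Skint9, chr4:112434138-112434217, minus strand: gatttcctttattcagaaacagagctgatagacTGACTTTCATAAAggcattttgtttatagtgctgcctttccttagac
Skint10, chr4:112774928-112775007, minus strand: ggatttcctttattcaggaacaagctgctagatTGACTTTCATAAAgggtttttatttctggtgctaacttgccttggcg
Skint11, chr4:114163289-114163368, plus strand: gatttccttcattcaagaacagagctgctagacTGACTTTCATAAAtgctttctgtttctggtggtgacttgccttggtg

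Both words were found by searching these windows for their longest shared runs, so their sharing is a description. Any given word of that length is seldom met in a set of windows of this size, so absence elsewhere does not mark these words as particular to the family. Set beside the levels, the 3 genes with the second word were at 7.08% (Skint9), 8.19% (Skint10) and 12.6% (Skint11) of NC in MNs. The 5 genes with the first word were at 23.3% (Skint1), 26.5% (Skint4), 16.6% (Skint3), 9.44% (Skint6) and 9.45% (Skint5), so the ranges overlapped. The Skint2 window lies inside the annotated Skint2 gene because RefSeq places the start there. It held neither word, and its longest identical run with Skint6 and with Skint5 was 12 bases. Aligned with overhanging ends left free of penalty, the window had identical bases over 61.2% of its length with Skint6 and with Skint5. Such an alignment can settle on a short overlap of 2 windows, so the values of other pairs are no baseline for this one. By the position of the 12-base run, the place of the first word in Skint6 and Skint5 falls before the Skint2 window. Its absence from that window therefore cannot be read as a difference. The window is shown whole because Skint2 was the member with the most divergent order of levels.
Skint2, chr4:112613490-112613739, plus strand: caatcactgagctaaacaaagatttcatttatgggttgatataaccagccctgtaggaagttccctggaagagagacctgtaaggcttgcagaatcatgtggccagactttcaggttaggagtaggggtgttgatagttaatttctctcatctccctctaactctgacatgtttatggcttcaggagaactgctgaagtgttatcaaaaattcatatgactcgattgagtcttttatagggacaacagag

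The TATA box letters TATAAA, read on both strands, were in 6 of the 11 Skint windows and in 12.4% of all windows. The AP-1 letters TGANTCA were in 1 of 11 (Skint11) and in 6.75% of all windows. The Grhl letters AACCNGTT were in no Skint window and in 1.78% of all. The C/EBP letters TTGCNNAA were in 2 of 11 (Skint2 and Skint11) and in 9.57% of all, and CCAAT was in 4 of 11 and in 33.8% of all. The interferon-stimulated response element was in 1 of 11 (Skint11) and in 2.97% of all windows.

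Near-identical stretches between the transcripts could split fragments between genes. Of the words of 100 bases in annotated transcripts, 3.49% of those of Skint7 were also in Skint8 and 0.45% of those of Skint11 in the pseudogene Gm12813. The other 8 chosen genes shared no word of that length with any other gene. At 50 bases, 6.83% of Skint7 words were in Skint8, 4.64% of Skint6 words in Skint5 and 3.97% of Skint5 words in Skint6, and 4.51% of Skint11 words were in Gm12813. Skint2 shared 2.11% of its words, Skint3 0.495% and Skint4 0.185%, while Skint1, Skint9 and Skint10 shared none, so the values of the sharing genes are the less certain ones. Skint4, Skint2, Skint6 and Skint11 overlap other annotated genes, none of which had a row in the table. Among these, the pseudogene Gm12814 lies within Skint2 on the same strand, and 1.29% of Skint2 words of 50 bases were in it.

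PRP-MNs was compared with NC to see how the family stood in skin given both treatments. Genes were read where either library reached 1 FPKM, differences were taken as log2 ratios after adding 1 FPKM to each level, and a difference of 2-fold on that scale was counted. All 10 Skint genes passed this filter and all 10 stood 2-fold or more lower in PRP-MNs, where 11.5% of 13981 genes were at least 2-fold lower and 17.6% at least 2-fold higher. Skint2, Skint4, Skint5 and Skint7 passed through NC alone. The differences ran from −4.02 in Skint9 to −2.45 in Skint7, with a median of −3.68, beside 0.14 over all genes read. Counted from the lowest of 13981 genes, Skint9 ranked 16, Skint1 23, Skint6 25, Skint10 26 and Skint5 28. The added 1 FPKM understates the differences of Skint7 and Skint2, which ranked 268 and 152. On the ratio of the summed FPKM the difference was −4.15 (exact 95% counting interval −4.23 to −4.06), or 17.7-fold lower.

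PRP was compared with NC to read the plasma without microneedles. Of the 10 genes, 5 were at least 2-fold lower in PRP (Skint1, Skint2, Skint5, Skint9 and Skint10), where 1.46% of 13533 genes were lower by that much and 7.78% higher. Skint6 at −0.99 and Skint3 at −0.96 lay just above the threshold, as did Skint4 at −0.89 and Skint11 at −0.85, and Skint7 differed least at −0.68. Skint2 differed most at −1.85 and ranked 12 from the lowest. The median difference was −1.03, beside 0.04 over all genes, and the log2 ratio of the summed FPKM was −1.06 (−1.09 to −1.02). The split at the threshold thus divides genes with nearly equal shares of NC, such as Skint10 at 46.9% and Skint6 at 49.0%.

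In MNs, set against NC to read microneedles without plasma, all 10 genes were at least 2-fold lower, and 7.12% of 13925 genes were lower by that much and 15.7% higher. Skint7 passed the filter through NC alone. Skint9 differed by −3.69, Skint10 by −3.43 and Skint6 by −3.07, with Skint9 ranked 4 from the lowest. At the other end Skint1 differed by −2.01, Skint4 by −1.68 and Skint2 by −1.05. The median was −2.72, beside 0.16 over all genes, and the summed level was 8.03-fold lower (log2 ratio between −3.06 and −2.95). All 3 comparisons used the same NC library.

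Set against PRP, PRP-MNs had all 10 genes at least 2-fold lower, where 7.5% of 13861 genes were at least 2-fold lower and 9.54% higher. The differences ran from −2.93 in Skint9 to −1.03 in Skint2, with a median of −2.68, beside 0.08 over all genes. Skint2, Skint4, Skint5 and Skint7 passed the filter through PRP alone. The summed level was 11.7% of that in PRP, a log2 ratio of −3.09, or 8.52-fold lower.

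Between PRP-MNs and MNs the family differed by less and less evenly. Of 9 genes that passed the filter, 4 stood 2-fold or more lower in PRP-MNs, namely Skint1 (−1.91), Skint2 (−1.83), Skint4 (−1.73) and Skint3 (−1.03), where 7.39% of 13933 genes were at least 2-fold lower and 7.16% higher. Skint2, Skint4 and Skint5 passed the filter through MNs alone. Skint5 at 32.5% and Skint6 at 42.7% of their MNs levels fell short of the count only through the added 1 FPKM. With 0.1 FPKM added instead, 6 members were counted, and the share of all genes was not taken at that setting. With a filter at 5 FPKM, Skint1 and Skint3 were the only members counted. Skint9 differed by −0.33 and Skint10 by −0.41, although both were among the most abundant members. Skint7, below 1 FPKM in both libraries, was not read. The 3 genes with the largest differences here, Skint1, Skint2 and Skint4, were those with the largest shares of NC left in MNs, and both readings use the MNs library. The median over all 10 genes was −0.86, beside −0.02 over all genes read. The summed level in PRP-MNs was 45.3% of that in MNs, a log2 ratio of −1.14 (−1.24 to −1.04), and −1.34 without Skint9.

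The layout with and without each treatment can be read from pairs that share no library. Where microneedles were used, the summed level with plasma was 45.3% of that without (PRP-MNs against MNs), and where they were not used it was 48.1% (PRP against NC). Where plasma was used, the level with microneedles was 11.7% of that without (PRP-MNs against PRP), and where it was not used it was 12.5% (MNs against NC). Both readings use the same 4 libraries, and the closeness of either pair of percentages follows from that of the other. They are therefore not separate observations. Single genes were less even. Skint1 in PRP-MNs was at 20.3% of its MNs level, and in PRP at 45.9% of its NC level, whereas Skint9 in PRP-MNs was at 77.2% of its MNs level and in PRP at 46.5% of its NC level. The difference between these pairs was not tested.

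Suprabasal keratinocyte genes and genes shared by epithelia were also lower, the suprabasal genes by more. Over all genes, 11.5% were at least 2-fold lower than NC in PRP-MNs, 1.46% in PRP and 7.12% in MNs. Of 18 suprabasal genes, 18 stood 2-fold or more lower in PRP-MNs than in NC, 5 in PRP and 17 in MNs, with medians of −3.14, −0.88 and −2.11. Their summed level was 3309 FPKM with PRP-MNs, 16299 with PRP, 6045 with MNs and 31039 in NC. The keratin Krt77 differed by −4.22 between PRP-MNs and NC, the cornified envelope gene Lor by −4.09, Flg2 by −4.08 and Krtdap by −3.80, a range that takes in Skint9 at −4.02. Of 16 genes shared by epithelia, 15 stood 2-fold or more lower in PRP-MNs, none in PRP and 8 in MNs, with medians of −1.89, −0.55 and −0.96. The adhesion gene Epcam differed by −2.68 between PRP-MNs and NC, the splicing factor gene Esrp1 by −2.59, the transcription factor gene Grhl1 by −2.55 and the desmosomal gene Perp by −2.27. Among 13 basal genes, 4 were at least 2-fold lower and 2 higher in PRP-MNs, beside 11.5% and 17.6% of all genes. The basal medians were −0.69 in PRP-MNs, −0.21 in PRP and −0.05 in MNs. The basal keratin Krt15 differed by −2.54 in PRP-MNs, Krt5 by −1.77 and the collagen gene Col17a1 by −1.67, whereas Lama3 was higher by 1.44. In MNs against NC, Krt15 was instead higher by 1.99, the only basal gene 2-fold different there.

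Relative to the median of the epithelial genes, the Skint sum was lower by a further −2.26 on the log2 scale in PRP-MNs, −0.50 in PRP and −2.04 in MNs, each against NC. Between PRP-MNs and PRP that value was −1.84, and between PRP-MNs and MNs it was −0.21. No epithelial gene and no basal gene was as low relative to NC as the Skint sum in any of the 3 libraries, whereas 2 of 18 suprabasal genes were in PRP-MNs, 5 in PRP and 4 in MNs. Relative to the suprabasal median the Skint sum was lower by −1.01 in PRP-MNs, −0.17 in PRP and −0.90 in MNs. Set against Krt10 alone, the Skint sum amounted to 5.90% of the Krt10 level with PRP-MNs, 6.97% with PRP, 5.74% with MNs and 8.21% in NC. Against Lor it amounted to 45.9% with PRP-MNs, 37.2% with PRP, 54.6% with MNs and 47.0% in NC, so the direction depended on the suprabasal gene taken. Against the basal keratin Krt14 it was 1.37% with PRP-MNs, 6.46% with PRP, 1.86% with MNs and 12.5% in NC.

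**Figure D5:**
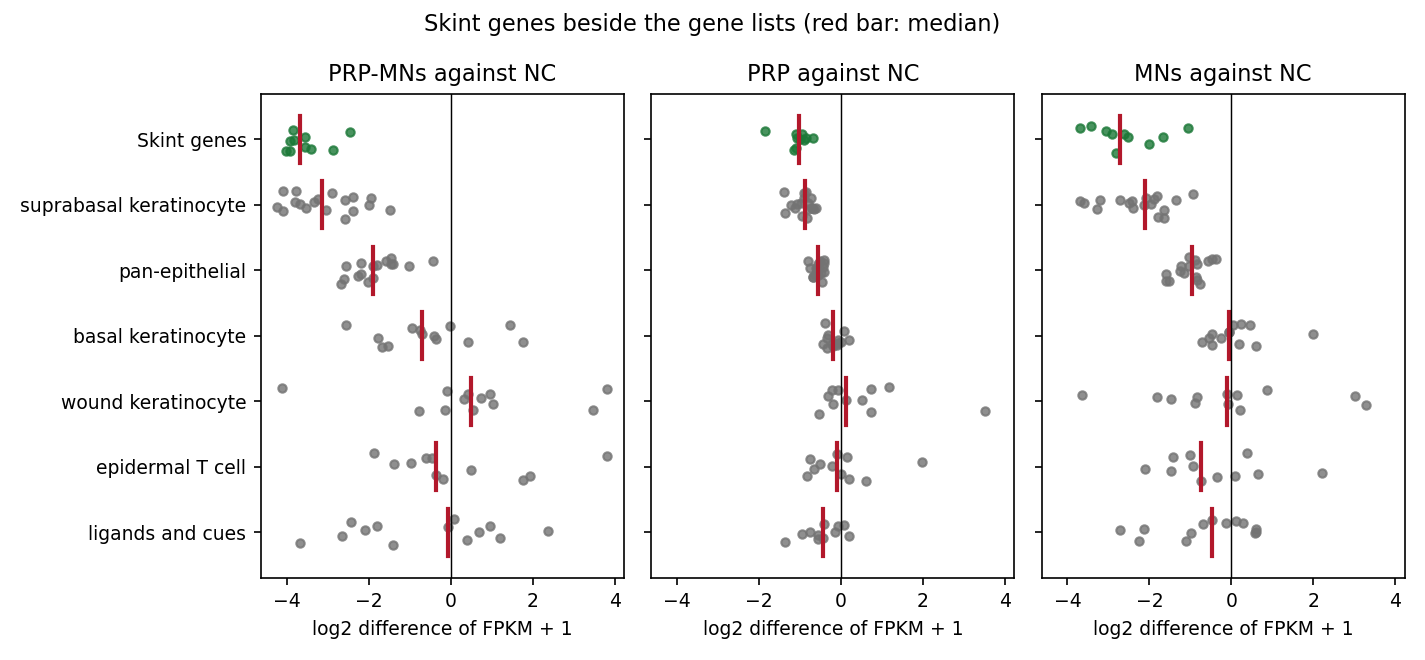
Log2 difference of FPKM + 1 for each Skint gene (top row) and for each read gene of 6 lists, in PRP-MNs, PRP and MNs against NC, with 1 point per gene and a red bar at the median. The Skint median lies at −3.68, −1.03 and −2.72, next to the suprabasal keratinocyte median at −3.14, −0.88 and −2.11, while the basal keratinocyte median lies at −0.69, −0.21 and −0.05.

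Wound-associated keratinocyte genes lay on both sides of 0. Of 12 such genes, 3 stood 2-fold or more higher and 1 lower in PRP-MNs than in NC, with a median of 0.49. Over all genes 17.6% were that much higher and 11.5% lower. Il24 was higher by 3.82, the iron-binding protein gene Lcn2 by 3.48 and the keratin Krt6a by 1.03, and Serpinb3a differed by −4.11. In PRP, 2 of 11 genes read were higher and none lower (median 0.11), beside 7.78% and 1.46% of all genes. In MNs, 2 of 12 were higher and 3 lower (median −0.10), beside 15.7% and 7.12%.

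Leaving out the members, the 5 genes whose levels over the 4 libraries were closest to the Skint sum were Calm5, Dapl1, Il1f6, Gm94 and Ereg. Likeness was the Euclidean distance between log2 of FPKM + 1, centred over the 4 libraries, taken over 10366 genes that reached 5 FPKM in some library. Calm5, a calmodulin-like gene, lay at a distance of 0.10, with 7.67 FPKM with PRP-MNs, 77.3 with PRP, 17.9 with MNs and 149 in NC. Dapl1 lay at 0.11, with 17.3 FPKM with PRP-MNs, 135 with PRP, 36.4 with MNs and 303 in NC. Il1f6, the gene of the epidermal cytokine IL-36 alpha, lay at 0.20, Gm94 at 0.30 and Ereg, a ligand gene of the EGF receptor, at 0.32. Among the members themselves Skint6 lay closest to the sum at 0.20, followed by Skint5 at 0.28, both nearer than Gm94 and Ereg, and Skint2 lay farthest at 2.11. Over 4 libraries such likeness is a description.

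Genes of the dendritic epidermal T cells that the family serves were read beside it. Of 16 listed genes 12 were found, and the 4 gamma delta receptor genes Trdc, Trdv4, Tcrg-V5 and Tcrg-C1 were not analysed here, so these T cells cannot be told from others by their receptor. The T cell receptor subunit gene Cd3g was at 3.91 FPKM with PRP-MNs, 9.68 with PRP, 3.21 with MNs and 17.1 in NC. As a share of NC that was 22.9% in PRP-MNs, 56.8% in PRP and 18.8% in MNs, each above the share of the Skint sum. Cd3e stood at 26.9% of NC in PRP-MNs, 47.6% in PRP and 24.2% in MNs, at 5.33 FPKM in NC. Both stood slightly higher in PRP-MNs than in MNs, where the Skint sum was lower.

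Over the whole epidermal T cell list, 2 of 11 genes read were at least 2-fold lower and 3 higher in PRP-MNs than in NC. Among all genes read, 11.5% were that much lower and 17.6% higher. The list medians were −0.36 in PRP-MNs, −0.10 in PRP and −0.75 in MNs, beside 0.14, 0.04 and 0.16 over all genes. The listed genes higher in PRP-MNs were Ptprc by 3.81, Jaml by 1.94 and Klrk1 by 1.77, all 3 of them also expressed by other leukocytes. Macrophage and monocyte genes stood higher beside them, with all 10 2-fold or more higher in PRP-MNs and a summed level of 2903 FPKM with PRP-MNs, 966 with PRP, 930.5 with MNs and 223 in NC. The neutrophil list had 7 of 7 read genes 2-fold or more higher in PRP-MNs and summed to 1020.2 FPKM there, 406 with PRP, 183 with MNs and 234 FPKM in NC. The fibroblast list summed to 1023 FPKM with PRP-MNs, 1907 with PRP, 7312 with MNs and 923 in NC, and the skeletal muscle list to 8963, 10739, 6048 and 6199 FPKM in the same libraries. The part of these lists in the Skint values was not tested.

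Cd207, the langerin gene of Langerhans cells, the other resident immune cells of the epidermis, was at 4.17% of NC in PRP-MNs, 48.6% in PRP and 19.1% in MNs. Of the 7 Langerhans genes 2 were at least 2-fold lower and 1 higher in PRP-MNs than in NC, with a median of −0.17. Over all genes 11.5% were that much lower and 17.6% higher.

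Among ligands and cues for epidermal T cells, more genes were lower than higher by 2-fold. Of 13 genes read, 6 were at least 2-fold lower and 2 higher in PRP-MNs than in NC (median −0.05), beside 11.5% and 17.6% of all genes. In PRP, 1 of 11 was lower and none higher, beside 1.46% and 7.78% of all genes, and in MNs 4 of 13 were lower and none higher, beside 7.12% and 15.7%. H60c, a ligand of the NKG2D receptor, was at 3.41 FPKM with PRP-MNs, 36.6 with PRP, 10.8 with MNs and 54.9 in NC, in the order of the Skint genes. Its share of NC was 6.22% in PRP-MNs and 66.6% in PRP. Cxadr, the gene of the ligand of the co-stimulatory receptor JAML, was at 7.09 FPKM with PRP-MNs, 28.8 with PRP, 20.9 with MNs and 42.7 in NC. Tslp differed by −2.65 between PRP-MNs and NC, while the cytokine receptor gene Il7r was higher by 2.38.

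Egr3, a transcription factor gene that Skint1 signalling is known to raise in developing mouse T cells, was at 17.5% of its NC level in PRP-MNs, 54.5% in PRP and 40.5% in MNs, with 73.3 FPKM in NC. Many other skin cells express Egr3, so in whole skin it is no readout of that signal. Among all genes read, 11.5% were at least 2-fold lower and 17.6% higher in PRP-MNs than in NC. The list of 10 selection genes that holds Egr3 had 2 of 8 read genes lower by that much and 4 higher, with a median of 0.92. The lower genes were Egr3 (−2.43) and Egr2 (−2.25), and Id2 was higher by 2.10 and Nfkb2 by 1.69.

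Butyrophilin relatives and other members of the B7 group were low in NC, and none was 2-fold lower in PRP-MNs, PRP or MNs. Over all genes, 11.5%, 1.46% and 7.12% were that much lower in these libraries. Of the 17 relatives, 6 reached 1 FPKM in PRP-MNs or NC. In PRP-MNs 5 of these were 2-fold or more higher, beside 17.6% of all genes. None of 5 read in PRP and none of 6 read in MNs was 2-fold higher, beside 7.78% and 15.7% of all genes. The checkpoint ligand gene Cd274 was higher by 3.49, the co-stimulatory genes Cd80 by 2.33 and Cd86 by 1.63, and Icosl by 1.53. Btnl1, Btnl4, Btnl6, Btnl10 and Btn2a2 were listed at 0 in every library. The 17 genes summed to 78.6 FPKM with PRP-MNs, 22.5 with PRP, 27.8 with MNs and 15.3 in NC.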

How the data were processed

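RNA of mouse skin was sequenced in 4 groups of 1 library. Each library started from 1 μg of RNA and a NEBNext kit, per the labels' protocols. All gene levels are FPKM, deposited as 1 table. The submitters' processing notes name GRCm38. The aligner, counting tool and strand setting are not given in the sources used here. Of 22036 Ensembl identifiers, 22022 matched GENCODE M21, which gave coordinates and transcript lengths.

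Differences were log2 of the ratio of FPKM + 1, read where either library reached 1 FPKM. The Skint sum was compared without a pseudocount or filter. Depth was estimated from steps in the low values of genes with 1 transcript. At the chosen step only 26.5% to 30.9% of these values came within 0.02 of whole fragments, so no count test was run and fragment numbers are approximate. Where even multiples dominated, the step was read as part of a fragment and the depth reduced to match, a choice made after seeing the values. Member fragments used the longest transcript. Counting intervals are exact binomial at 95%. No p-value was computed, since each group had 1 library. Only the 2-fold call was tried on simulated data, with planted changes larger than the threshold in genes at or above 5 FPKM in the reference. The depth estimate, the intervals, the sums and the alignments were not tried in this way.

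Members, lists and comparisons were chosen with earlier results of these data known. Named list genes were up to 4 per list with the largest difference between PRP-MNs and NC. A gene that this rule names is not reported here. Cd3e, Aire, Fezf2 and the skin keratins were named as markers, Lama3 as a basal gene that was higher, and Skint8 and the genes beside the cluster by position. Upstream sequences are from RefSeq, GRCm38.p6, in which all 10 members matched. Python 3.11.15, pandas 2.3.3, SciPy 1.17.1 and Biopython 1.88 were used.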

Additional observations from a re-analysis of the deposited data

How the results depend on the processing

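Alternatives were another pseudocount (0.1), no filter or a filter at 5 FPKM, 3 rescalings, the sum without Skint9, all Skint symbols, and other keratinocyte lists. No value changed sign. The number of members at least 2-fold lower kept within 1.5 times of that reported, except between PRP-MNs and MNs, where a filter at 5 FPKM gave 2 in place of 4. A pseudocount of 0.1 gave 6 in that comparison. Rescaling to equal FPKM sums raised the median of all genes by 0.14 in PRP-MNs and 0.18 in MNs against NC. It gave log2 ratios of the Skint sum of −3.99 in PRP-MNs, −1.01 in PRP and −2.81 in MNs against NC, and −2.97 in PRP-MNs against PRP. Rescaling without mitochondrially encoded genes gave −4.00, −0.98 and −2.85 against NC, and centring on the median of all genes gave −4.29, −1.10 and −3.16. Without Skint9 the ratio was −2.79 in MNs against NC and −1.34 in PRP-MNs against MNs, and relative to epithelial genes −1.83 and −0.41.

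Relative to basal genes in place of epithelial genes, the Skint sum stood at −3.46 in PRP-MNs, −0.85 in PRP and −2.96 in MNs against NC, at −2.63 in PRP-MNs against PRP and at −0.50 against MNs. Relative to suprabasal genes these values were −1.01, −0.17, −0.90, −0.86 and −0.51. Each sets a ratio of sums against a median of single genes, which are unlike measures. The causes of these shifts were not tested. No paired analysis was possible because each group had 1 library, and for the same reason no library could be left out. Depth limits Skint2 and Skint7 most.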
